A study of Rattus norvegicus with 12 samples.

Results

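Chemokines are small secreted proteins, a few of them anchored in the membrane, and they act through receptors on the cells they attract. The genes described here are those whose symbols are numbered names of CC, CXC and CX3C chemokines, of CC and CXC receptors and of the atypical receptors Ackr1 to Ackr4. A gene was kept where its counts summed over the 12 libraries reached 10. This rule kept 48 of 34322 genes: 18 CC ligands, 10 CXC ligands, the single CX3C ligand Cx3cl1, 10 CC receptors, 5 CXC receptors and 4 atypical receptors. Another 6 genes had matching names but fewer counts, namely Ccl25, Ccl28, Ccr4, Cxcl3, Cxcl6 and Cxcr1, which had 0 to 7 counts each. The name rule leaves out the fractalkine receptor Cx3cr1, the XC receptor Xcr1 and the chemerin receptor Cmklr1.

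The libraries came from hearts of male Sprague-Dawley rats, labelled as wild type. The animals received the kinase inhibitor sorafenib at 50 mg/kg by daily gavage, or water by the same route. Hearts were taken after 28 days of sorafenib, 28 days of water, 14 days of sorafenib or 14 days of water, with 3 libraries in each of these 4 groups. Sorafenib is a cancer drug that blocks RAF kinases and the receptors for VEGF and PDGF, and cardiac side effects are known in patients. Nothing in the labels states that every library is 1 rat of its own, and the spread behind each p-value is therefore that between libraries, which may in part be technical. Libraries are called by the numbers in their labels: 2, 3 and 4 in both day 28 groups, 5, 6 and 7 in the sorafenib group of day 14, and 2, 3 and 7 in the water group of day 14.

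In the heart, chemokines are made by endothelial cells, fibroblasts, macrophages and lymphatic vessels, and they guide leukocytes out of the blood and through the tissue. The receptors couple to G proteins and direct cell migration. The atypical receptors do not couple to G proteins in this way and instead bind, transport or take up chemokines, which lowers or shapes their local concentration. Fractalkine, the product of Cx3cl1, is anchored to the endothelial surface and also acts as an adhesion molecule. The homeostatic ligand Cxcl12, with its receptor Cxcr4 and its scavenger Ackr3, is known for its part in vessel growth and repair of the heart.

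Promoter sequences are given for the pair of genes that passed the test of sorafenib against water over both days, Cx3cl1 and Ccl24, and for Cxcl10, the member whose promoter held a match to each motif searched. Each is the 250 bases before the transcription start in RefSeq, build GRCr8, written 5′ to 3′ on the strand of the gene. They lie at chr19:10242821-10243070 on the minus strand for Cx3cl1, chr12:26737173-26737422 on the plus strand for Ccl24, and chr14:15988816-15989065 on the plus strand for Cxcl10. Capitals mark motif matches on either strand.
Cx3cl1: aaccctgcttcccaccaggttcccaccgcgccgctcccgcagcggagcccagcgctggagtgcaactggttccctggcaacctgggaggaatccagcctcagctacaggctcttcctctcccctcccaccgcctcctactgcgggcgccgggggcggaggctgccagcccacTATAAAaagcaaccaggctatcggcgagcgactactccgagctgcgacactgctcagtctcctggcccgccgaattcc
Ccl24: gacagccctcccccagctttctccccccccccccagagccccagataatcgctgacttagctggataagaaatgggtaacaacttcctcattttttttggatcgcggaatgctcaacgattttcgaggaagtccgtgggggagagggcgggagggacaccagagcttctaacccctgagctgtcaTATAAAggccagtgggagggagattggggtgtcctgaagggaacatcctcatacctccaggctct
Cxcl10: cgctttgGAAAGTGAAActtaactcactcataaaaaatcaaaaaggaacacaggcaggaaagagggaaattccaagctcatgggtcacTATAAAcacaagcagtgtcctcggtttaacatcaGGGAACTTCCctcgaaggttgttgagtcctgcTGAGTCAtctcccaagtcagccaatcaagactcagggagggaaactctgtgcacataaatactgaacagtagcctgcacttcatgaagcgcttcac
In Cx3cl1 and Ccl24 the capitals are the TATA box letters TATAAA, 78 to 73 bases before the start in Cx3cl1 and 65 to 60 bases before it in Ccl24. In Cxcl10, an interferon-inducible ligand, the capitals mark in order the core of the interferon-stimulated response element (the letters GAAA repeated after any 2 bases), TATAAA, the NF-kappaB consensus and the AP-1 letters TGANTCA. The interferon element stands 243 to 234 bases before the start and the NF-kappaB match 128 to 119 bases before it, and none of the 4 matches overlap. Of the 48 members, 36 had a promoter in the RefSeq table. The NF-kappaB consensus was in 7 of these 36 (19.4%), against 4.27% of all 27457 promoters of that length. TATAAA was in 12 of 36 (33.3%), against 13.1% of all promoters, and TGANTCA was in 6 of 36 (16.7%), against 6.36%. The interferon element was in 2 of 36 (5.56%), Ccl19 and Cxcl10, against 3.29% of all promoters. These are letter matches and not measured binding sites.

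Between 16785038 and 26403196 counts were assigned to genes in 5 of the 6 day 28 libraries and between 13746366 and 18534816 in the day 14 libraries. Sorafenib day 28 library 3 stood apart with 1036483 counts, so that 1 count in it equals 0.835 CPM, the unit of counts scaled to library size. It held a count for 32 of the 48 members, against 40 to 46 in each other library, and 633 member counts in all, against 5138 to 10526. All CPM values below were scaled with the TMM factors of the 12 libraries. Cardiomyocyte markers summed to between 41013 and 98955 CPM in every library, as the label of heart tissue requires.

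Scaled by exon length, the highest mean levels over the 6 water libraries were those of the scavenger receptor Ackr3, at 42.5 ± 9.18 CPM per kb, and its ligand Cxcl12, at 29.4 ± 8.55 CPM per kb (SD, n = 6 each). The lymphatic ligand Ccl21 followed at 20.5 ± 19.2 CPM per kb, with an SD close to its mean, and the myeloid ligand Ccl6 was at 19.3 ± 3.19 CPM per kb. The spread of Ccl21 does not set it apart from Cxcl12 or Ccl6. Cxcl16 was next at 9.80 ± 2.16 CPM per kb, Cxcl11 at 8.55 ± 2.67, Ccl5 at 7.22 ± 2.38, Cx3cl1 at 6.98 ± 2.17 and Cxcr4 at 6.40 ± 2.87 CPM per kb, each within 1 SD of its neighbour in this order. The lowest mean level was that of the eosinophil receptor Ccr3, at 0.0187 CPM per kb. Of the 48 members, 24 averaged at least 1 CPM over the 12 libraries: 4 of the 18 CC ligands, 8 of the 10 CXC ligands, Cx3cl1, 4 of the 10 CC receptors, 3 of the 5 CXC receptors and all 4 atypical receptors.

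**Figure D1:**
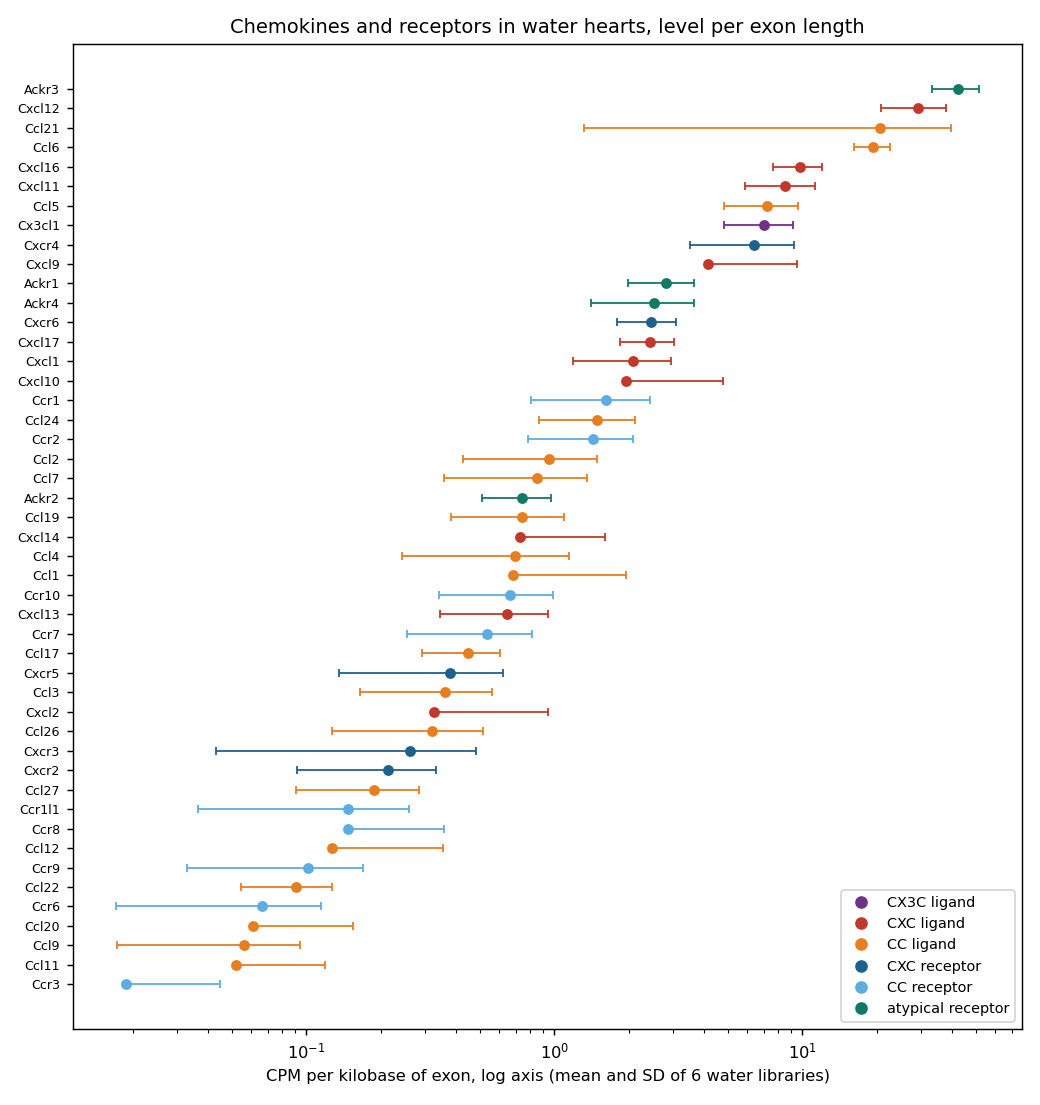
Mean level of the members shown in the 6 water libraries, in CPM per kb of exon on a log axis; points are means and bars are SD, and the lower bar is left out where the SD is as large as the mean. Ackr3 and Cxcl12 lie at the top, at 42.5 and 29.4 CPM per kb, and Ccr3 lies at the bottom, at 0.0187 CPM per kb.

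Many members sit beside each other in the genome, and neighbours differed widely in level. In build mRatBN7.2, which the files use, a cluster of receptor genes on chromosome 8 holds, among others, Ccr9, Cxcr6, Ccr1, Ccr3, Ccr1l1 and Ccr2. The monocyte ligands Ccl2 and Ccl7 stand with Ccl11, Ccl12 and Ccl1 at chr10:67005424-67131109, and Ccl5, Ccl9, Ccl6, Ccl3 and Ccl4 at chr10:68322826-68467941. Cx3cl1, on the minus strand at chr19:10227337-10237826, lies between Ccl17 and Ccl22, which had 30 and 28 counts over all 12 libraries. Ccl24, on the plus strand at chr12:21100835-21104832, is the neighbour of Ccl26. The exons of 6 members overlap those of another gene (Ccl12, Ccl27, Ccr10, Ackr4, Cxcl16 and Cxcl17). Counting did not use strand, so reads in the overlaps could not be assigned by strand, and the effect on these counts was not tested.

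The main comparison asked how far sorafenib hearts differed from water hearts in these genes when both days are averaged. Of the 34 members tested, Cx3cl1 and Ccl24 fell with sorafenib and 0 rose (edgeR quasi-likelihood test, adjusted p under 0.05). These 2 called members are 5.88% of the 34, against 4.41% of all 18174 genes called in either direction and 2.41% called lower. DESeq2 called 5 members, all lower with sorafenib: Cx3cl1, Ccl24, Ccl6, Cxcl16 and Cxcr4. The shares of all genes given here and below are those of edgeR. Calls by DESeq2 therefore have no share over all genes beside them and cannot be read as an excess among the members. At an unadjusted p under 0.05, 4 members were higher and 7 lower with sorafenib, which is 11.8% and 20.6% of the members, against 11% and 13.2% of all genes. The median log2 fold change of the 34 members was -0.278, with 21 below 0, and that of all genes was -0.00652. No member had groups that did not overlap, in 1 direction, at both days, against 2.44% of all genes for higher and 3.36% for lower.

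Within each day no member passed the edgeR test. At day 28, 0 of 28 members tested were called, against 0% of all 17021 genes, and DESeq2 called 0 members. At an unadjusted p under 0.05, 1 member was higher and 5 were lower with sorafenib at day 28 (3.57% and 17.9% of the members), against 7.04% and 7.83% of all genes and 14.9% in either direction. The members' median log2 fold change was -0.367 at day 28, with 19 of 28 below 0, and that of all genes was -0.00258. At day 14, 0 of 31 members were called, against 0% of all 17406 genes, and DESeq2 called Cxcr4. At an unadjusted p under 0.05, 3 members were higher and 4 lower at day 14 (9.68% and 12.9%), against 7.09% and 6.93% of all genes and 14% in either direction. The median was -0.0157 at day 14, with 16 of 31 below 0, and that of all genes was 0.00103. Groups with no overlap at a single day were also common among all genes. At day 28, 1 of 28 members lay higher and 4 lay lower with no overlap, against 10.1% and 11.9% of all genes. At day 14, 2 of 31 lay higher and 3 lay lower, against 10.5% and 10.6%. The average over both days uses the libraries of both single-day comparisons, so the 3 results are not independent.

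**Figure D2:**
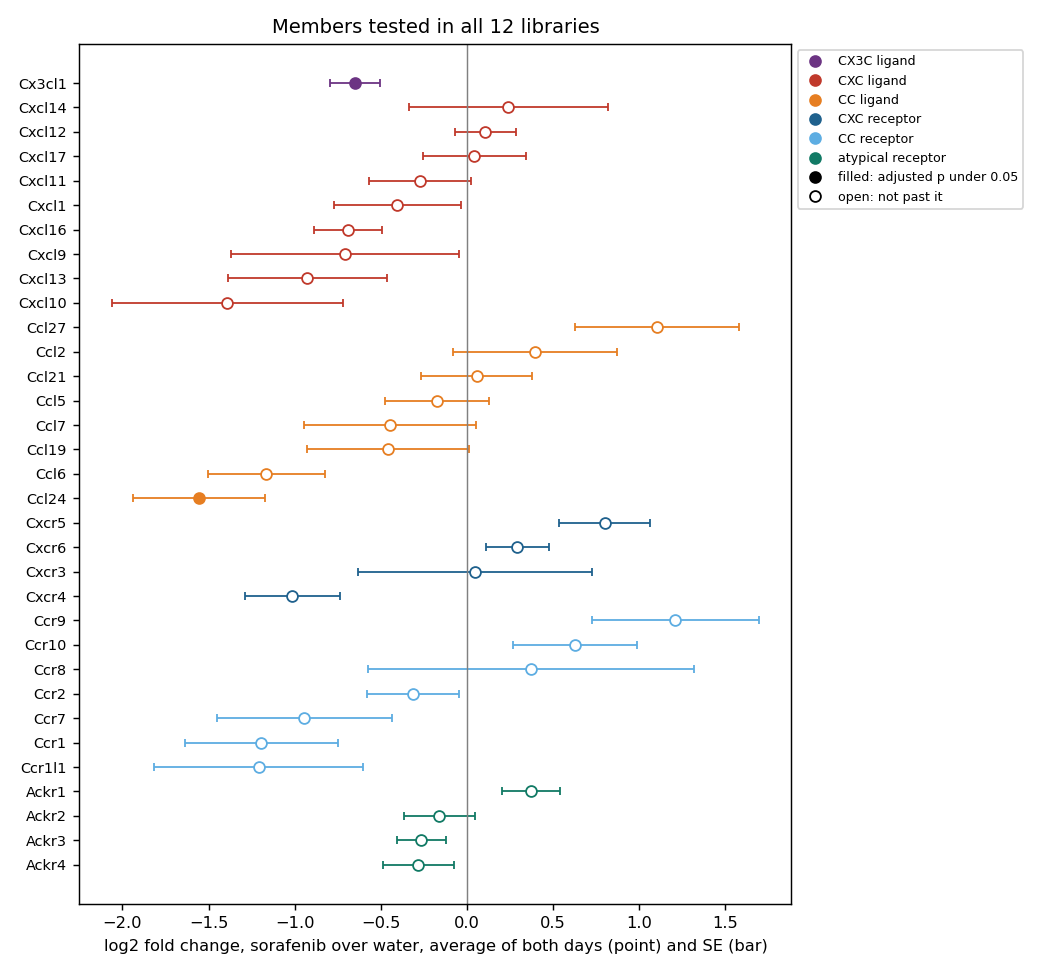
Log2 fold change of sorafenib over water, averaged over both days, for the members shown; points are estimates from edgeR, bars are standard errors, and filled points passed an adjusted p of 0.05. Cx3cl1 and Ccl24 are the filled points, at -0.65 and -1.56, and estimates run from below -1.5 to above 1.

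Among the ligands, Cx3cl1 had 18.2, 14.2 and 17.3 CPM in the 3 sorafenib hearts of day 28, against 27.6, 24.4 and 39.5 CPM in the 3 water hearts of that day. At day 14 it had 17.6, 12.8 and 12.95 CPM in sorafenib hearts, against 22.5, 19.8 and 17.5 CPM in water hearts. The groups did not overlap at day 28, and at day 14 only the highest sorafenib library reached the lowest water library. Cx3cl1 averaged 16.6 ± 2.08 CPM in sorafenib hearts and 30.5 ± 7.98 CPM in water hearts at day 28, and 14.5 ± 2.75 CPM in sorafenib hearts and 19.9 ± 2.48 CPM in water hearts at day 14 (SD, n = 3 each). Over both days its log2 fold change was -0.65 ± 0.15 (SE, edgeR adjusted p = 0.0295), and within the days it was -0.81 ± 0.22 at day 28 (adjusted p = 0.188) and -0.46 ± 0.18 at day 14 (adjusted p = 0.313). In the 12 fits that each left out 1 library, it was between -0.72 and -0.54 and passed in 6. In bulk tissue, fewer cells of a type and less RNA per cell cannot be told apart. The 13 endothelial markers, chosen because endothelial cells are a known source of fractalkine, summed to between 1955 and 2160 CPM in sorafenib hearts and 1920 and 2309 CPM in water hearts at day 28. At day 14 they summed to between 1824 and 2259 CPM with sorafenib and 1910 and 2211 CPM with water. Of these 13, 2 fell over both days (15.4%, against 2.41% of all genes), the VEGF receptor Kdr and the surface sialomucin Emcn, and none had 0 counts throughout a group. Their part in the Cx3cl1 result was not tested. The fractalkine receptor Cx3cr1, which lies outside the name rule and was chosen after its values were seen, had between 0 and 0.666 CPM in the 6 sorafenib hearts and between 0.217 and 1.36 CPM in the 6 water hearts. Its log2 fold change over both days was -1.06 ± 0.64 (adjusted p = 0.32).

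Ccl24 encodes eotaxin-2, a ligand of the eosinophil receptor Ccr3 that macrophages are known to make. It had 0.345, 0 and 0.399 CPM in sorafenib hearts of day 28, against 1.52, 1.13 and 2.89 CPM in water hearts. The highest sorafenib value was below the lowest water value at this day, and the library with 0 is the shallow one. At day 14 Ccl24 had 2.22, 1.26 and 1.03 CPM in sorafenib hearts, against 3.13, 2.95 and 1.41 CPM in water hearts, and the groups overlapped. Behind these values stand 12 counts in sorafenib hearts and 115 in water hearts at day 28, and 76 counts in sorafenib hearts and 144 in water hearts at day 14. Ccl24 fell over both days by 1.56 ± 0.38 on the log2 scale (SE, edgeR adjusted p = 0.0382). Without the shallow library the log2 fold change was -1.49 (adjusted p = 0.0502), and it passed in 5 of the 12 fits that each left out 1 library. Its log2 fold changes were -2.36 ± 0.65 at day 28 (adjusted p = 0.198) and -0.72 ± 0.42 at day 14 (adjusted p = 0.48). The neighbour Ccl26, eotaxin-3, was too low for the filter, and was chosen after its values were seen. It had 1 count in the 6 sorafenib libraries, against 25 in the 6 water libraries. Its share of counts with sorafenib was 0.0566 times that with water (95% exact interval 0.00138 to 0.346, counting error only). Ccl26 met the minimum count for members only through its water libraries and was picked by its values. The ratio therefore leans low by selection and does not test a fall. In the edgeR fit without a filter the adjusted p of Ccl26 was 0.0864. The receptor gene Ccr3 had 7 counts in sorafenib hearts and 8 in water hearts over both days.

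**Figure D3:**
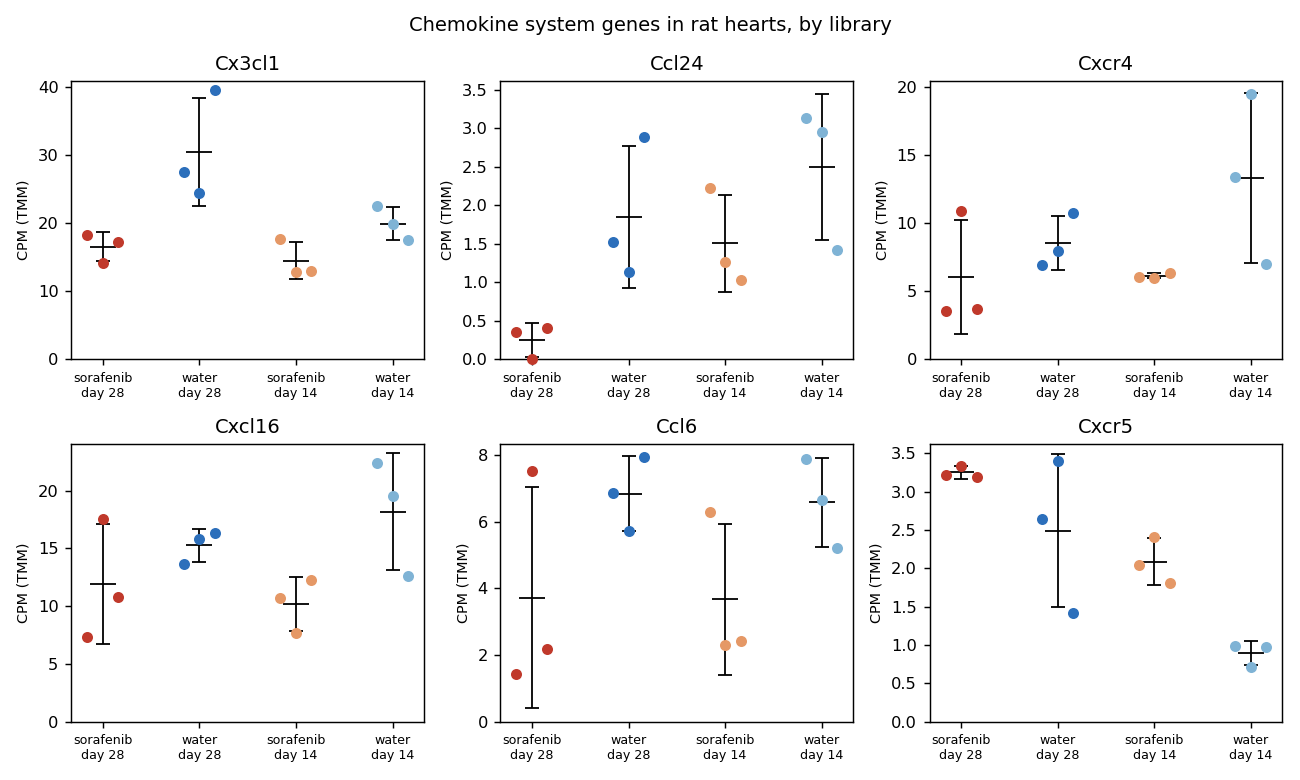
Level of Cx3cl1, Ccl24, Cxcr4, Cxcl16, Ccl6 and Cxcr5 in each library, in CPM with TMM scaling; dots are libraries, lines are means and bars are SD of 3 libraries, cut at 0. At day 28 the sorafenib dots of Cx3cl1 and Ccl24 all lie below the water dots, while for Cxcr4, Cxcl16 and Ccl6 sorafenib library 3, the shallow one, lies among or above the water libraries.

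The next ligands by p-value, Cxcl16 and Ccl6, were lower in the mean at both days but did not pass the edgeR test. Cxcl16 is the transmembrane ligand of Cxcr6 and a scavenger receptor. It had 7.36, 17.5 and 10.8 CPM in sorafenib hearts, against 13.6, 15.9 and 16.3 CPM in water hearts at day 28. In the day 14 hearts it had 10.7, 7.64 and 12.2 CPM in sorafenib hearts, against 22.4, 19.5 and 12.6 CPM in water hearts. The groups were apart at day 14 by a narrow margin, and at day 28 the shallow sorafenib library was the highest of the 6. The log2 fold change over both days was -0.69 ± 0.20 (edgeR adjusted p = 0.0609). Ccl6, a CC ligand of rodents made by myeloid cells, had 1.44, 7.52 and 2.19 CPM in sorafenib hearts, against 6.87, 5.71 and 7.95 CPM in water hearts at day 28. After 14 days it had 6.30, 2.30 and 2.42 CPM in sorafenib hearts, against 7.87, 6.66 and 5.21 CPM in water hearts. In each day 1 sorafenib library lay within the range of the water libraries, and the other two lay below it. Its log2 fold change was -1.17 ± 0.34 over both days (adjusted p = 0.0617). Without the shallow library Ccl6, Cxcl16 and Cxcr4 passed the edgeR test together with Cx3cl1.

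Cxcl12, the ligand of Cxcr4 and Ackr3, had the most counts of all members. It had 142, 265 and 186 CPM in sorafenib hearts, against 204, 172 and 149 CPM in water hearts at day 28, and 277, 194 and 252 CPM with sorafenib, against 193, 318 and 184 CPM with water at day 14. The groups overlapped at both days, and the log2 fold change was 0.11 ± 0.18 (edgeR adjusted p = 0.751). The T cell and monocyte ligand Ccl5 had between 2.19 and 5.11 CPM in sorafenib hearts and between 1.95 and 5.73 CPM in water hearts over both days, with a log2 fold change of -0.17 ± 0.30 (adjusted p = 0.76).

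The interferon-inducible ligands Cxcl9, Cxcl10 and Cxcl11, neighbours at chr14:15689432-15727779 that share the receptor Cxcr3, differed in pattern between libraries. Cxcl11 had 3.11, 5.85 and 8.44 CPM in sorafenib hearts, against 10.01, 9.99 and 10.8 CPM in water hearts at day 28, with no overlap. In day 14 hearts it had 6.12, 12.98 and 9.32 CPM in sorafenib hearts, against 10.1, 9.91 and 3.31 CPM in water hearts, with overlap. The log2 fold change of Cxcl11 was -0.81 ± 0.35 at day 28 (edgeR adjusted p = 0.322) and -0.27 ± 0.30 over both days (adjusted p = 0.598). Without sorafenib day 28 library 2 it was -0.41 at day 28 and -0.06 over both days, and without sorafenib day 28 library 4 it was -1.40 and -0.60. Leaving out 1 of the other libraries gave -0.45 to -0.14 over both days. Cxcl10 had 0.173, 1.67 and 0.266 CPM in sorafenib hearts of day 28, against 0.981, 0.443 and 1.04 CPM in water hearts. At day 14 Cxcl10 had 1.74, 0.919 and 1.57 CPM with sorafenib, against 8.76, 1.53 and 0.488 CPM with water. Water library 2 of day 14 was the highest of all 12 for Cxcl10 and also for Cxcl9, at 8.24 CPM, where the remaining libraries had at most 2.52 CPM of Cxcl9. Over both days the log2 fold change was -1.39 ± 0.67 for Cxcl10 (adjusted p = 0.217) and -0.71 ± 0.66 for Cxcl9 (adjusted p = 0.53). Without that water library the estimates were -0.44 for Cxcl10 and 0.05 for Cxcl9.

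Ccl21, made by lymphatic vessels and bound by Ccr7 and the scavenger Ackr4, had 1 water library far above the rest. It had 12.3, 20.1 and 18.6 CPM in sorafenib hearts, against 12.2, 17.7 and 49.0 CPM in water hearts at day 28. After 14 days it had 20.2, 9.08 and 13.1 CPM in sorafenib hearts, against 6.20, 6.71 and 11.4 CPM in water hearts. The groups overlapped at both days, and the log2 fold change over both was 0.06 ± 0.32 (edgeR adjusted p = 0.939). The skin-homing ligand Ccl27, whose exons overlap Il11ra1, had 1.09, 3.34 and 0.465 CPM in sorafenib hearts and 0.785, 0.197 and 0.568 CPM in water hearts at day 28. At day 14 Ccl27 had 0.780, 0.632 and 0.968 CPM with sorafenib, against 0.417, 0.203 and 0.434 CPM with water, with no overlap. Its log2 fold change over both days was 1.10 ± 0.48 (adjusted p = 0.174).

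The neutrophil ligand Cxcl1 had between 0.804 and 2.06 CPM in sorafenib hearts and 0.757 and 2.89 CPM in water hearts (log2 fold change -0.41 ± 0.37). The mucosal ligand Cxcl17 had between 1.53 and 5.28 CPM with sorafenib and 1.51 and 3.43 CPM with water (log2 fold change 0.04 ± 0.30), and Cxcl14 between 0.633 and 2.39 CPM with sorafenib and 0.0508 and 3.98 CPM with water (log2 fold change 0.24 ± 0.58). The monocyte ligands Ccl2 and Ccl7 averaged below 1 CPM, with log2 fold changes of 0.40 ± 0.48 and -0.45 ± 0.50. The B cell ligand Cxcl13 was at -0.93 ± 0.46 and the Ccr7 ligand Ccl19 at -0.46 ± 0.47. The edgeR adjusted p-values of these 7 ligands lay between 0.232 and 0.95, and none passed.

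Among the signalling receptors, Cxcr4 came closest to the threshold. It had 3.57, 10.9 and 3.65 CPM in sorafenib hearts, against 6.92, 7.97 and 10.7 CPM in water hearts at day 28. At day 14 it had 6.06, 5.97 and 6.35 CPM in sorafenib hearts, against 13.4, 19.5 and 6.996 CPM in water hearts. The groups did not overlap at day 14, and at day 28 the shallow sorafenib library was above every water library, on 13 counts. Cxcr4 averaged 6.03 ± 4.19 CPM with sorafenib and 8.55 ± 1.98 CPM with water at day 28, and 6.13 ± 0.20 CPM with sorafenib and 13.3 ± 6.26 CPM with water at day 14 (SD, n = 3 each). The log2 fold change over both days was -1.02 ± 0.28 (edgeR adjusted p = 0.0517, DESeq2 adjusted p under 0.05).

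Cxcr5, the receptor by which B cells and follicular T cells follow Cxcl13, had its widest gap at day 14. It had 3.22, 3.34 and 3.19 CPM in sorafenib hearts, against 2.65, 3.40 and 1.42 CPM in water hearts at day 28, where the groups overlapped. In day 14 hearts it had 2.04, 2.41 and 1.82 CPM in sorafenib hearts, against 0.990, 0.712 and 0.976 CPM in water hearts, with no overlap. The log2 fold change was 1.23 ± 0.34 at day 14 (edgeR adjusted p = 0.188) and 0.80 ± 0.26 over both days (adjusted p = 0.0889). The 8 B cell markers together had between 1.72 and 4.18 CPM in sorafenib hearts and between 3.80 and 6.36 CPM in water hearts over both days. Of the 4 tested, 0 were called and 3 were below 0, with 2 lower and 0 higher at an unadjusted p under 0.05, against 13.2% and 11% of all genes. Their part in the Cxcr5 values was not tested. Cxcr6, the receptor of Cxcl16, had between 3.45 and 6.96 CPM in sorafenib hearts and between 3.00 and 6.20 CPM in water hearts, with a log2 fold change of 0.29 ± 0.18 (adjusted p = 0.344).

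The inflammatory receptors Ccr1 and Ccr2 lie in the receptor cluster on chromosome 8 and are carried by monocytes, macrophages and T cells. Ccr1 had 0.863, 3.34 and 0.399 CPM in sorafenib hearts, against 2.26, 1.23 and 3.597 CPM in water hearts at day 28, and 3.12, 1.03 and 1.57 CPM with sorafenib, against 5.63, 2.90 and 2.39 CPM with water at day 14. The groups overlapped at both days, and the log2 fold change was -1.19 ± 0.45 over both days (edgeR adjusted p = 0.124). Ccr2, the main receptor of Ccl2 and Ccl7, had 3.68, 5.85 and 3.85 CPM in sorafenib hearts, against 4.66, 3.15 and 8.71 CPM in water hearts at day 28. In day 14 hearts Ccr2 had 8.70, 5.80 and 8.90 CPM with sorafenib, against 11.9, 8.90 and 5.69 CPM with water. The groups overlapped at both days here too, and the log2 fold change was -0.31 ± 0.26 (adjusted p = 0.483). Summed, Ccr1 and Ccr2 had 4.54, 9.19 and 4.25 CPM in sorafenib hearts, against 6.92, 4.38 and 12.3 CPM in water hearts at day 28. At day 14 the sums were 11.8, 6.84 and 10.5 CPM in sorafenib hearts, against 17.5, 11.8 and 8.08 CPM in water hearts. Library by library the sums overlapped between the groups at both days.

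Macrophages carry these receptors and are a known source of Ccl24 and Ccl6, and their markers leaned lower with sorafenib. The 20 markers summed to 165, 475 and 269 CPM in sorafenib hearts, against 362, 380 and 570 CPM in water hearts at day 28. At day 14 they summed to 327, 144 and 198 CPM in sorafenib hearts, against 529, 280 and 282 CPM in water hearts. The ranges overlapped at both days. Over both days 20 of 20 had a log2 fold change below 0, with a median of -0.781, and 4 fell (Adgre1, Cybb, C1qb and C1qa), beside 2.41% of all genes called lower. No marker of the list had 0 counts throughout a group. The 12 T cell markers summed to between 10.7 and 18.4 CPM in sorafenib hearts and between 8.68 and 14.6 CPM in water hearts over both days. Of the 11 tested, edgeR called 0, also 0 at an unadjusted p under 0.05, and their median was 0.181. The 9 mast cell markers found summed to between 16.9 and 25.1 CPM with sorafenib and 35.1 and 38.0 CPM with water at day 28, and to between 23.5 and 33.8 CPM with sorafenib and 46.9 and 64.1 CPM with water at day 14. The ranges of these sums did not overlap, and 1 of the 7 tested, the stem cell factor receptor Kit, fell over both days (14.3%, against 2.41% of all genes), with 7 of 7 below 0 and a median of -0.739. Marker by marker, 2 of 6 tested at day 28 and 1 of 6 at day 14 were lower with no overlap, against 11.9% and 10.6% of all genes. The median log2 fold change of the mast cell markers was -0.935 at day 28 and -0.294 at day 14. A sum is weighted to the markers of highest level, and no share over all genes stands beside it. Of the 9, 1 had 0 counts in all sorafenib hearts of day 14. The part of macrophages and mast cells in the values of Ccl24, Ccl6, Cxcl16, Cxcr4 and Ccr1 was not tested.

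**Figure D4:**
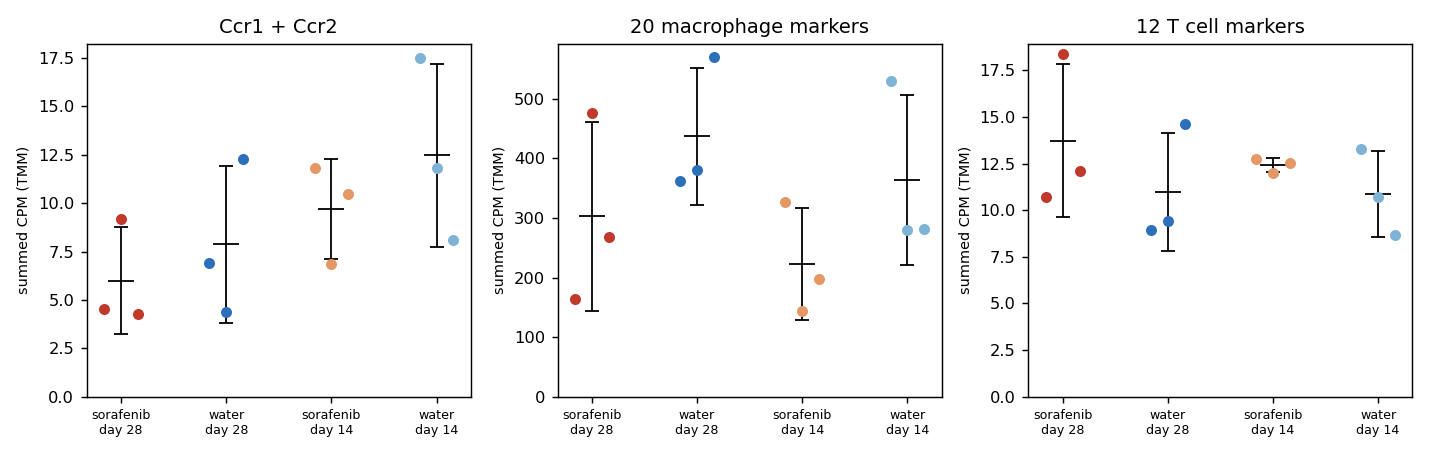
Summed CPM in each library of Ccr1 and Ccr2, of 20 macrophage markers and of 12 T cell markers; dots are libraries, lines are means and bars are SD of 3 libraries. The macrophage sums reach 475 CPM in sorafenib hearts and 570 CPM in water hearts and overlap between the treatments at both days.

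The remaining receptors were low. Ccr10, which binds Ccl27 and whose exons overlap Cntnap1, had 1.15, 2.51 and 2.59 CPM in sorafenib hearts, against 0.785, 1.08 and 0.710 CPM in water hearts at day 28, with no overlap. At day 14 the 2 groups overlapped, and the log2 fold change was 1.21 ± 0.53 at day 28 (edgeR adjusted p = 0.327) and 0.63 ± 0.36 over both days (adjusted p = 0.295). The gut-homing receptor Ccr9 was at 1.21 ± 0.49 (adjusted p = 0.148) from 53 counts in sorafenib hearts and 31 in water hearts. The lymph node homing receptor Ccr7 was at -0.94 ± 0.51 (adjusted p = 0.265), with 7 counts in sorafenib hearts and 48 in water hearts at day 28, and 26 counts in sorafenib hearts and 30 in water hearts at day 14. Counts in this paragraph are not scaled to library depth. In CPM, Ccr7 averaged 0.149 with sorafenib and 0.777 with water at day 28, and 0.517 with sorafenib and 0.521 with water at day 14. Ccr1l1, a receptor-like relative of Ccr1, was at -1.21 ± 0.61 (adjusted p = 0.235), Ccr8 at 0.37 ± 0.94 and Cxcr3, the receptor of Cxcl9 to Cxcl11, at 0.05 ± 0.68. Ccr6, the receptor of Ccl20, was below the filter, with 7 counts in sorafenib hearts and 39 in water hearts over both days. Its share with sorafenib was 0.254 times that with water (95% exact interval 0.0958 to 0.574, counting error only), with an adjusted p of 0.193 in the edgeR fit without a filter. Of its 39 water counts, 11 were in water day 14 library 2 and 14 in water day 28 library 2. The other water libraries had 2 to 5 each, and the interval leaves out this spread. Ccr6 met the minimum count for members only through its water libraries, so the ratio leans low by selection and does not test a fall.

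Of the 4 atypical receptors, edgeR and DESeq2 each called 0 over both days, and at an unadjusted p under 0.05 Ackr1 was higher with sorafenib. Ackr3 had 59.4, 119 and 81.9 CPM in sorafenib hearts, against 104, 109 and 109 CPM in water hearts at day 28, and 70.9, 58.5 and 67.0 CPM with sorafenib, against 73.0, 63.9 and 84.8 CPM with water at day 14. The groups overlapped at both days, and its log2 fold change was -0.26 ± 0.14 (edgeR adjusted p = 0.262). Ackr1, the venular and red cell receptor that binds many ligands, had 10.5, 15.9 and 16.9 CPM in sorafenib hearts, against 10.8, 9.94 and 12.5 CPM in water hearts at day 28. At day 14 it had 11.1, 6.89 and 8.53 CPM with sorafenib, against 7.82, 5.64 and 6.67 CPM with water, the groups overlapped at both days, and the log2 fold change was 0.37 ± 0.17 (adjusted p = 0.198). Ackr2, a scavenger of inflammatory CC ligands on lymphatic vessels, had 4.66, 5.85 and 4.05 CPM in sorafenib hearts, against 5.94, 8.42 and 8.76 CPM in water hearts at day 28, with no overlap. The 5.85 CPM rests on 7 counts in the shallow library, where 1 count equals 0.835 CPM, so this separation is narrow. After 14 days Ackr2 had 8.76, 5.63 and 6.78 CPM with sorafenib, against 4.53, 7.22 and 3.90 CPM with water. The log2 fold change of Ackr2 over both days was -0.16 ± 0.21 (adjusted p = 0.663). Ackr4, the scavenger of Ccl19, Ccl21 and Ccl25, had 3.91, 1.67 and 4.05 CPM with sorafenib, against 2.94, 2.81 and 4.07 CPM with water at day 28. In the day 14 hearts it had 4.26, 3.79 and 4.42 CPM with sorafenib, against 5.42, 8.49 and 6.72 CPM with water, with no overlap and a log2 fold change of -0.72 ± 0.23 (adjusted p = 0.235).

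**Figure D5:**
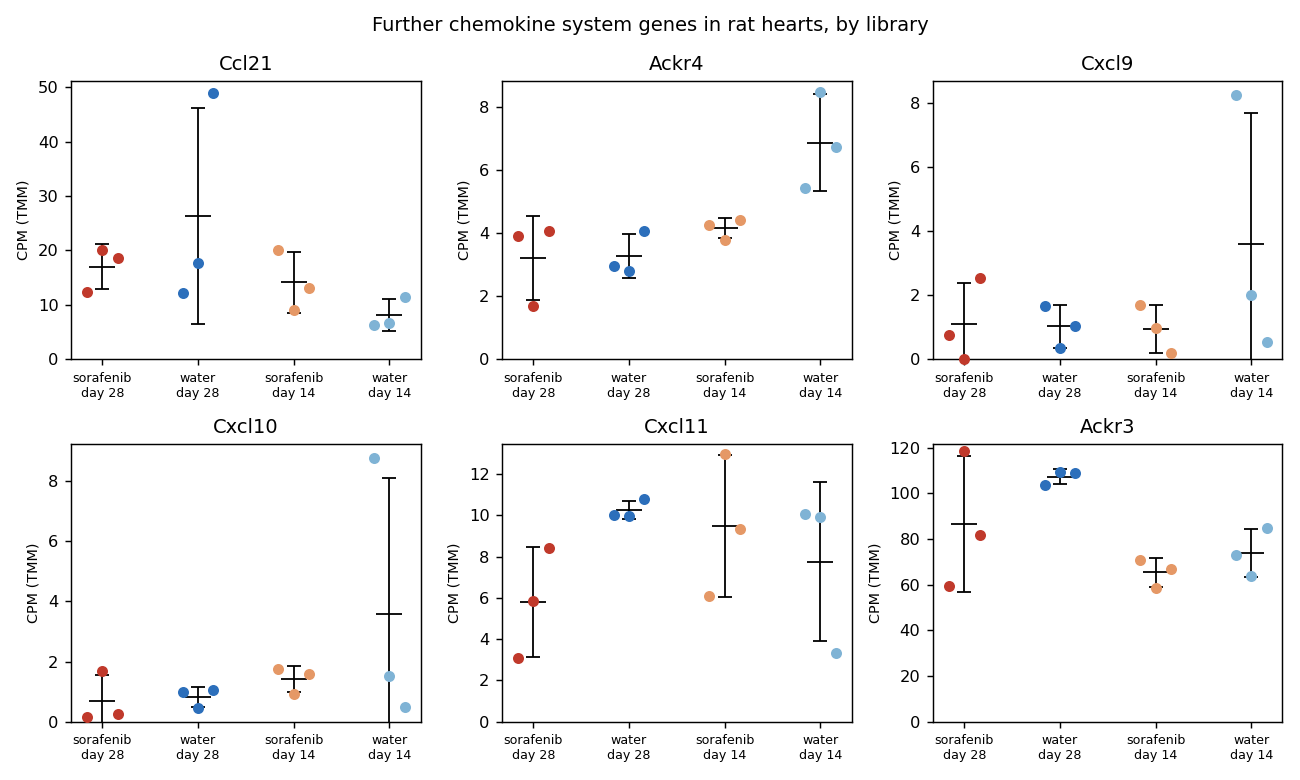
Level of Ccl21, Ackr4, Cxcl9, Cxcl10, Cxcl11 and Ackr3 in each library, in CPM with TMM scaling; dots are libraries, lines are means and bars are SD of 3 libraries, cut at 0. Ccl21 reaches 49.0 CPM in 1 water library of day 28, and Cxcl9 and Cxcl10 reach 8.24 and 8.76 CPM in 1 water library of day 14.

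Whether the sorafenib effect differed between the days was tested as an interaction, day 28 minus day 14. Of the 34 members, edgeR and DESeq2 each called 0, against 0% of all 18174 genes. At an unadjusted p under 0.05, 1 member was above 0 and 3 were below (2.94% and 8.82%), against 2.26% and 2.16% of all genes. These were Ackr4, at 0.89 ± 0.41, and Ackr2, Ccl21 and Ccl24, at -1.19 ± 0.41, -1.48 ± 0.65 and -1.65 ± 0.76, with an edgeR adjusted p of 0.999 each. The value of Ccl21 was -0.67 without water day 28 library 4, the one with 49.0 CPM. The median difference of the members was -0.381, with 26 of 34 below 0, and that of all genes was -0.0195. A difference between the days was thus not detectable for any member with 3 libraries a group.

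Water hearts of day 28 were also set against those of day 14, a comparison in which age, time on water and any difference between the collections cannot be told apart. At day 28 relative to day 14, Cxcr5 and Ccl21 rose and Ackr4 fell, which is 5.88% and 2.94% of the 34 members, against 5.8% and 2.7% of all genes (edgeR adjusted p under 0.05; 8.51% of all genes in either direction). The members were thus called at about the rate of all genes. DESeq2 also called 3 members. Cxcr5 averaged 2.49 ± 1.00 CPM in water hearts of day 28 and 0.893 ± 0.157 CPM in those of day 14 (log2 fold change 1.47 ± 0.37, adjusted p = 0.0256). Ccl21 averaged 26.3 ± 19.9 CPM at day 28 and 8.12 ± 2.89 CPM at day 14 (log2 fold change 1.70 ± 0.46, adjusted p = 0.0361). Without the day 28 library with 49.0 CPM, the log2 fold change of Ccl21 was 0.88 and it did not pass. Ackr4 averaged 3.27 ± 0.69 CPM at day 28 and 6.88 ± 1.54 CPM at day 14 (log2 fold change -1.07 ± 0.28, adjusted p = 0.0305), and its exons overlap those of Acad11. The water libraries of the 2 days did not overlap for these 3 genes. In all, 5 of the 34 members lay higher and 2 lay lower at day 28 with no overlap, against 17.7% and 16.1% of all genes. Of the 12 fits that each left out 1 library, Ackr4 passed in 8, Cxcr5 in 7 and Ccl21 in 6.

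Cx3cl1 was at 0.61 ± 0.20 between the water groups (adjusted p = 0.0717), Ackr1 at 0.73 ± 0.24 (adjusted p = 0.0724) and Ackr3 at 0.54 ± 0.20 (adjusted p = 0.107), each higher at day 28. Cxcl10, at -2.12 ± 0.80 (adjusted p = 0.117), and Cxcr6, at -0.63 ± 0.25 (adjusted p = 0.141), were lower in the mean at day 28, and Cxcl14 was at 1.77 ± 0.81 (adjusted p = 0.193). Without water day 14 library 2, Cxcl10 was at -0.30. Cxcl14 was at 0.47 without water day 28 library 4 and at 1.21 without water day 14 library 3. The same water libraries serve as controls in the comparisons with sorafenib. The 6 lymphatic markers, from the vessels that make Ccl21, summed to between 138 and 213 CPM in water hearts of day 28 and between 125 and 149 CPM in those of day 14, and 1 of the 6 rose (16.7%, against 5.8% of all genes). Mesothelial markers, from the outer lining of the heart, summed to between 15.8 and 34.4 CPM in water hearts of day 28 and between 44.6 and 116 CPM in those of day 14, and 5 of 8 fell (62.5%, against 2.7% of all genes). The part of either cell type in these differences was not tested.

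Genes that work with the chemokines, from 4 lists of the wider system, were also tested over both days. Of 7 tested genes of the chemokine system outside the name rule, 3 fell with sorafenib (edgeR), which is 42.9%, against 2.41% of all genes called lower. They were the ligand-cleaving protease Dpp4, at -0.74 ± 0.16 (adjusted p = 0.029), Xcr1, at -2.08 ± 0.53 (adjusted p = 0.0423), and Cmklr1, at -0.48 ± 0.13 (adjusted p = 0.0464). Of 36 receptor signalling genes, 2 fell, the small GTPase Cdc42, at -0.46 ± 0.11, and the G protein subunit Gnb1, at -0.40 ± 0.10, and 32 of the 36 were below 0 with a median of -0.237. Of 28 inducers and regulators of chemokine genes, 2 fell, the interferon regulatory factor Irf7, at -1.04 ± 0.22 (adjusted p = 0.025), and the NF-kappaB inhibitor Tnfaip3, at -0.67 ± 0.17 (adjusted p = 0.0382), with a list median of -0.245. As this list holds inhibitors too, Tnfaip3 among them, its median does not measure induction. Of 18 leukocyte adhesion genes, 1 fell, the integrin chain Itgal, at -0.91 ± 0.18 (adjusted p = 0.0215). The calls were 5.56% of the signalling list, 7.14% of the inducers and regulators and 5.56% of the adhesion list. None of the genes on these 4 lists rose. The lists were chosen with earlier results of these data known, so their shares are no independent support.

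Single libraries stood out across the members. Among the 24 members of at least 1 CPM, water day 14 library 2 had the highest value of Ccr1, Ccr2, Cxcl16, Ccl24, Cxcl9 and Cxcl10, among others, water day 28 library 4 that of Ccl21, Ccl5, Ccl6, Cxcl14 and Cx3cl1, and sorafenib day 28 library 2 the lowest value in 7 members. Among these members with a count in every library, the highest library was 2.03 times the lowest for Ackr3 and 2.23 times for Cxcl12, at the even end. At the uneven end it was 50.7 times for Cxcl10 and 78.2 times for Cxcl14, whose lowest library had 1 count. Ccl24 and Cxcl9 had 0 counts in the shallow library, so they have no such ratio. Low members could also rest on 1 library. Ccl1 had 28 counts and Ccr8 had 21 counts in water day 14 library 2, and the neutrophil ligand Cxcl2 had 35 counts in water day 28 library 3. The 14 members below the filter of the fit over both days got no call in the fit without a filter, where their lowest adjusted p was that of Ccl26.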

How the data were processed

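Per the submitters' processing notes and the file headers, STAR and featureCounts 2.0.1 were used, with read pairs counted over RefSeq genes of build mRatBN7.2 and no use of strand, although the library kit is directional. The deposited tables, 1 for each day, hold raw counts per gene. Of their columns, 2 match no sample analysed here and were not used. Groups come from the labels. Genes were tested with edgeR 4.0.16 (TMM scaling, filterByExpr, robust quasi-likelihood test, Benjamini-Hochberg adjustment over all genes of the fit, threshold 0.05) in R 4.3.3. Single days were fitted on their 6 libraries, and the average, the difference between days and the water comparison on all 12. The fitting code was checked on simulated counts. DESeq2 1.42.0, other scaling and filters, a replicate block and leaving out each library were the alternatives. Standard errors were taken from the F value of each test. Named are the members of at least 1 CPM, those called, and others chosen after their values were seen. The members and lists were chosen with earlier results of these data known. A member that is counted in the totals is not reported here by itself and is left out of the figures.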

Additional observations from a re-analysis of the deposited data

How the results depend on the processing

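The count of members past an adjusted p of 0.05 moved most for the average of both days, where edgeR called 2. DESeq2 called 5, the fit without a filter 4 and the replicate block 0, and leaving out 1 library gave 0 to 4. The shares over all genes in these alternatives are not given, so their counts of calls have no background. The count was 0 without water day 14 library 2 or 3, sorafenib day 14 library 6 or 7, water day 28 library 4 or sorafenib day 28 library 2, and 4 without sorafenib day 28 library 3. DESeq2 called 1 member at day 14, where edgeR called 0, and leaving out 1 library gave 0 to 0 at each single day and for the difference. For the water hearts edgeR called 3, and leaving out 1 library gave 0 to 3, with 0 without water day 14 library 3 and 1 without water day 14 library 2, water day 28 library 2 or water day 28 library 3. Under the replicate block Cx3cl1 was at -0.65 (adjusted p = 0.168) and Ccl24 at -1.47 (adjusted p = 0.234). The block over both days joined libraries by number alone, also across days, although hearts of different days cannot come from the same rat. The numbers 5 and 6 each occurred in 1 library only. Values under this block therefore do not test a pairing of animals. Whether the shared numbers pair the day 28 samples is not known. Deviations of same-numbered samples from their group means correlated at 0.0917, 0.035 and 0.289. Sorafenib samples 2 and 4 correlated best with the water sample of their own number, and sorafenib sample 3 with water sample 2, at 0.149. With 3 samples a group, 1 of them shallow, these correlations cannot decide whether same-numbered samples are pairs. The block changed no call within day 28. Over both days 11 of 18 alternatives kept Cx3cl1 past the threshold and 10 of 18 kept Ccl24, all in the same direction. Signs turned for Ackr2, Ccl21, Ccl5, Ccr2, Cxcl9, Cxcl11, Cxcl14 and Cxcl17, none of them called, and the cause was not tested. Under the block, Cxcl17 was at -0.395, Ccl21 at -0.157, Ackr2 at 0.0642, Ccr2 at 0.087, Ccl5 at 0.208, Cxcl11 at 0.264 and Cxcl14 at -0.223. Leaving out 1 library gave -0.18 to 0.20 for Cxcl17, -0.12 to 0.46 for Ccl21, -0.241 to 0.0209 for Ackr2, -0.458 to 0.0109 for Ccl5, -1.29 to 0.0481 for Cxcl9 and -0.31 to 0.89 for Cxcl14. Depth limits the day 28 values of low genes in 1 of the 3 sorafenib libraries.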
